A study of Mus musculus with 768 samples.

Results

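Ccl5, Xcl1, Ccl3, Ccl4, Ccl1 and Ifng encode chemokines and a cytokine that lymphocytes release when they act on other cells. The 6 genes were taken by name and make up 6 of the 23127 genes in the count table. They were followed in 768 thymus cells of 6- to 8-week-old C57BL/6 mice, sorted singly into 8 plates. Each plate held 96 cells and is 1 library. Per the labels the mice were Tcf7-/-, carried Vav-cre with Tcf7fl/fl, carried Lck-cre with Tcf7fl/fl, or were wild type (WT). The Tcf7 product TCF1 is a transcription factor that thymocytes need early in their development. Vav-cre is a recombinase expressed throughout the blood lineages, and Lck-cre is expressed from early T-cell precursors onwards. Cells of the DN1 gate were CD45+, lineage-negative, CD4-, CD8-, CD25- and CD44+, and cells of the DN2-3 gate were CD45+, lineage-negative, CD4-, CD8- and CD25+. Tcf7-/-, Vav-cre and WT gave 1 library for each gate, and Lck-cre gave 2 libraries of the DN2-3 gate.

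Chemokines are small secreted proteins that draw other leukocytes along a gradient, and each binds a limited set of receptors. Ccl3, Ccl4 and Ccl5 encode chemokines that draw T cells and monocytes, Xcl1 encodes the ligand of XCR1 on cross-presenting dendritic cells, and Ccl1 encodes a ligand of CCR8. Ifng encodes interferon-gamma, the cytokine of type 1 responses, which acts on cells through a receptor made from Ifngr1 and Ifngr2. Natural killer (NK) cells and memory T cells are known as rich sources of CCL5, XCL1 and interferon-gamma, whereas DN2 and DN3 thymocytes are T-cell precursors that rearrange their receptor genes.

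In the GENCODE annotation of GRCm38 (mm10), 4 of the genes lie on chromosome 11. Ccl5 is annotated at chr11:83525778-83530518 on the minus strand, Ccl3 at chr11:83647844-83649355 on the minus strand and Ccl4 at chr11:83662584-83664683 on the plus strand. Ccl3 and Ccl4 are 13228 bases apart, and Ccl5 and Ccl3 are 117325 bases apart. Ccl1 is annotated at chr11:82176657-82305690 on the minus strand. Xcl1 is at chr1:164931644-164935527 on the minus strand and overlaps Gm20743 on the other strand, and Ifng is at chr10:118441046-118445892 on the plus strand and overlaps Gm49751 on the same strand. Whether the counting used strand is not given in the sources used here, so reads of Xcl1 and Ifng cannot be told apart from reads of these overlapping genes.

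Xcl1 and Ifng were the members lower than WT in both the Tcf7-/- and the Vav-cre DN1 library, and their promoters are shown for that reason. The sequences are from RefSeq on GRCm38.p6 and run from 250 bases before to 50 bases after the start, 5′ to 3′ on the strand of the gene. The Xcl1 window is chr1:164935473-164935772 on the minus strand, with capitals on a T-box motif that begins 188 bases before the start. The Ifng window is chr10:118440796-118441095 on the plus strand, with capitals on a TATA box that begins 30 bases before the start.
Xcl1: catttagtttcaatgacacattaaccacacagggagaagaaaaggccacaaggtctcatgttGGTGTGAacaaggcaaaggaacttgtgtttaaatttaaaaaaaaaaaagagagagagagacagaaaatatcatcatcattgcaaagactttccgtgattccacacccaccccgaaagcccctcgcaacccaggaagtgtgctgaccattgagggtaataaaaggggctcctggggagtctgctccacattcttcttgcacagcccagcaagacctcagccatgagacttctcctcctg
Ifng: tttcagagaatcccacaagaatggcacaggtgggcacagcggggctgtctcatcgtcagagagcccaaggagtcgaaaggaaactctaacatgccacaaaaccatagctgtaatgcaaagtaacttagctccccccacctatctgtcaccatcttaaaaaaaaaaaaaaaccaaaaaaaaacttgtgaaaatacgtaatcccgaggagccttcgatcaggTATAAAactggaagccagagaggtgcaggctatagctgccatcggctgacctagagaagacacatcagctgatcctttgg
The letters searched on both strands were GGTGTGA for the T-box motif bound by factors such as T-bet, CTTTGA for TCF/LEF factors, TGANTCA for AP-1 and TATAAA for a TATA box. These letters occur in 3.98%, 16%, 7.81% and 13.6% of 32851 promoter windows of the same length, in that order. The windows of Ccl3 and Ccl1 held none of them, and the table matched 4 of the 6 genes, with Ccl4 and Ccl5 named only. A match is a description of the letters and no evidence of binding.

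A minimum of 1000 detected genes left 675 of the 768 cells, 240 of the DN1 gate and 435 of the DN2-3 gate. Summed totals ran from 1547512 counts in Vav-cre DN1 to 8371808 in Tcf7-/- DN2-3. A kept cell held a median of 37088.5 counts in Tcf7-/- DN1, 19293 in Vav-cre DN1 and 66572 in WT DN1, while DN2-3 libraries had medians from 43592.5 to 70003. The plates used the same 96 well barcodes. The 8 markers of DN2 and DN3 cells summed to between 5441 and 8091 CPM in the DN2-3 libraries, and to 750, 311 and 82.5 CPM in Tcf7-/-, Vav-cre and WT DN1. Levels are CPM, the counts of a gene summed over the kept cells of a library per 1000000 summed counts, with exact 95% Poisson intervals that cover counting error only. A summed level cannot tell fewer cells with a transcript from less of it per cell, so cells are counted beside it. No animals are named and only Lck-cre DN2-3 has a second library, so no genotype was tested and no p-value is given. Tcf7 itself stood at 98.6, 368 and 134 CPM in the DN1 libraries of Tcf7-/-, Vav-cre and WT mice. In the DN2-3 gate it stood at 122 CPM in Tcf7-/- DN2-3, 964 CPM in Vav-cre DN2-3, 762 and 658 CPM in the Lck-cre libraries and 862 CPM in WT DN2-3. It was thus not lower than WT in the libraries labelled Vav-cre, which are called Vav-cre-labelled here. The deleted exons are not given in the sources used here, so counts over the whole gene may not check a label. The Tcf7-/- cells carry other label fields than the rest and may be a batch of their own, so in these libraries a batch cannot be told apart from the genotype.

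The 6 genes were mostly products of the DN1 gate. DN1 cells held 99.6% of the 15619 Ccl5 counts, 99.6% of the 3929 Xcl1 counts, all 93 Ccl3 counts, 99.8% of the 1183 Ccl1 counts and 87.8% of the 805 Ifng counts. Ccl4 was the exception, with 336 counts in the DN1 gate and 242 in the DN2-3 gate. Within the DN1 gate Ccl5 had more than 5 counts in 81 of 240 cells and Xcl1 also in 81 of 240. Ifng had more than 5 counts in 23 of these cells, Ccl4 in 11, Ccl3 in 5 and Ccl1 in 1.

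**Figure D1:**
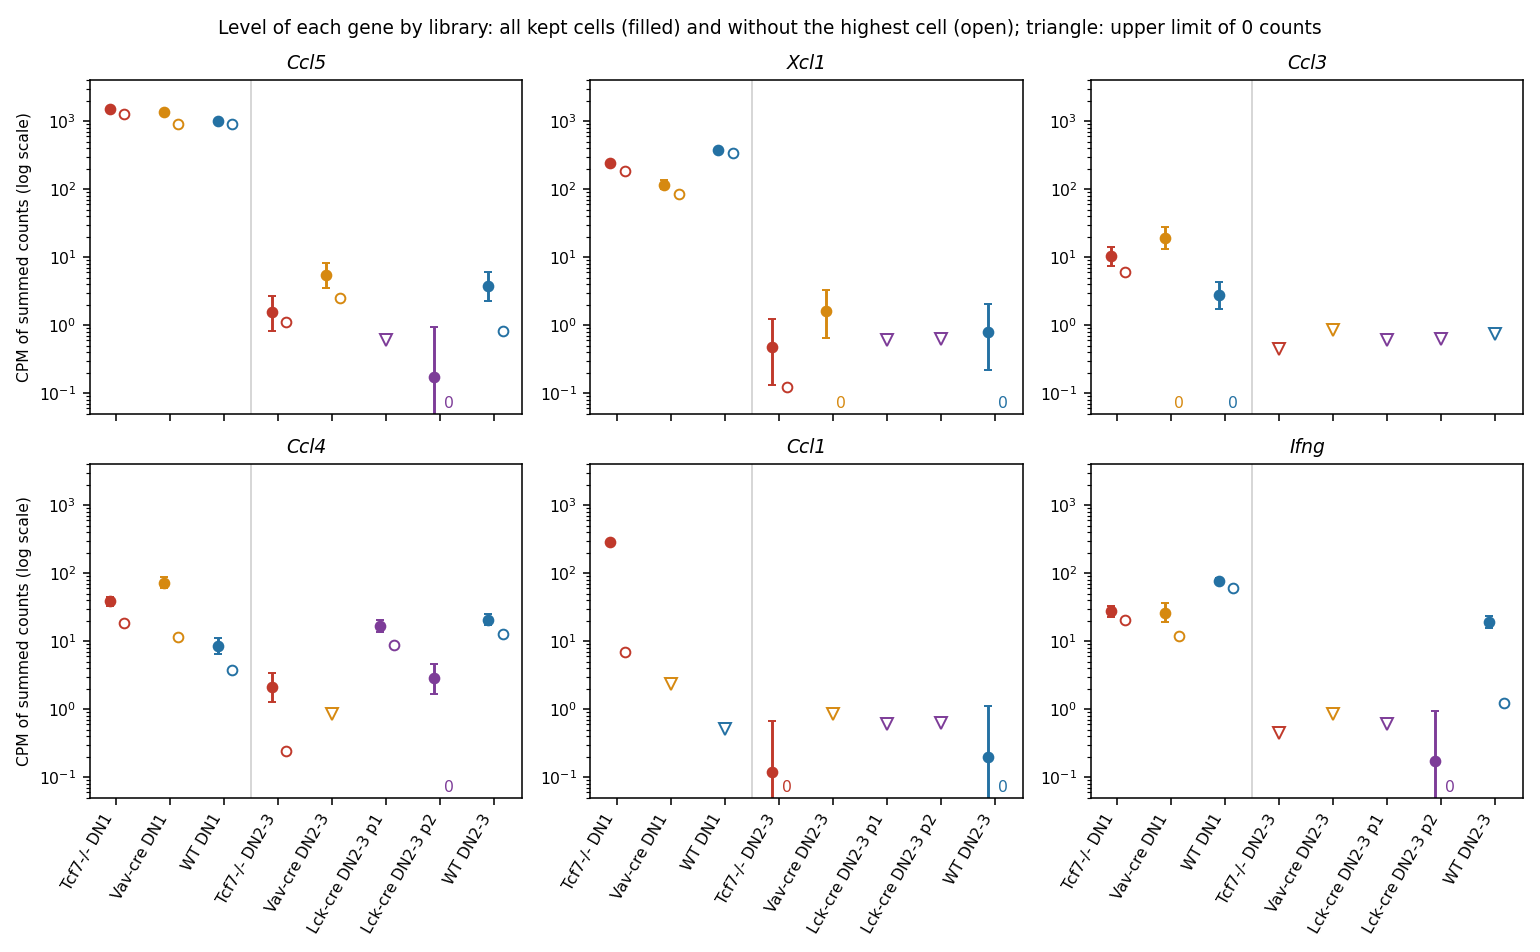
Level of each gene in each library, in CPM of summed counts on a log axis, with DN1 libraries left of the grey line and DN2-3 libraries right of it. Filled points are all kept cells with exact 95% Poisson intervals, open points leave out the highest cell, a 0 marks no counts left without that cell, and triangles mark the upper limit where no count was seen. Ccl1 of Tcf7-/- DN1 drops to 7 CPM without 1 cell, and Ifng of WT DN2-3 to 1.22 CPM.

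The DN1 libraries were set against WT DN1 to see how the level of each gene stood in cells labelled as lacking TCF1. In the Tcf7-/- library 2 of the 6 measured members (at least 10 CPM in either library) were at least 2-fold higher than in WT and 1 was at least 2-fold lower, where 10.4% and 5.34% of 8579 measured genes were. Ccl4 and Ccl1 were higher and Ifng was lower. Ccl1, Ccl3 and Ccl4 reached 10 CPM only in the Tcf7-/- library, so they could differ only upwards. In the Vav-cre-labelled library 2 of 5 measured members were at least 2-fold higher, Ccl3 and Ccl4, and 2 were at least 2-fold lower, Xcl1 and Ifng, where 18% and 9.64% of 8798 measured genes were. Ccl3 and Ccl4 reached 10 CPM here only in the Vav-cre-labelled library. The median log2 ratio of the members was 0.63 in Tcf7-/- DN1 and 0.46 in Vav-cre-labelled DN1, and that of all measured genes was 0.07 and 0.13. These log2 ratios use a pseudocount of 10 CPM, which draws the ratio of a low gene towards 0. Both comparisons share the WT library. With so few members these counts describe each gene and support no statement on the list.

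Ccl5, which encodes the chemokine also called RANTES, stood at 1511 CPM (1474 to 1549) in Tcf7-/- DN1, 1381 CPM (1323 to 1441) in Vav-cre-labelled DN1 and 1004 CPM (981 to 1027) in WT DN1. The log2 ratio over WT was 0.59 for Tcf7-/- and 0.46 for Vav-cre-labelled cells, both short of 2-fold. A few cells set these levels. The highest 3 cells held 42.9% of the Ccl5 counts in Tcf7-/- DN1, with 1130, 861 and 704 counts. They held 81.2% in Vav-cre-labelled DN1, with 786, 768 and 181 counts, and 26.6% in WT DN1, with 697, 678 and 522 counts. Without the highest cell the level was 1265 CPM in Tcf7-/- DN1, 914 CPM in Vav-cre-labelled DN1 and 913 CPM in WT DN1, so the difference between Vav-cre-labelled and WT DN1 rested on 1 cell.

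The number of cells with Ccl5 did not follow the summed level. At least 1 count was seen in 77 of 96 Tcf7-/- cells, 39 of 58 Vav-cre-labelled cells and 76 of 86 WT cells. Of these, 45 Tcf7-/-, 28 Vav-cre-labelled and 38 WT cells held only 1 to 5 counts. In the DN2-3 gate 17 of 435 cells had a count. More than 5 counts were seen in 33.3% of Tcf7-/- cells (24 to 43.7, exact binomial 95% interval), 19% of Vav-cre-labelled cells (9.87 to 31.4) and 44.2% of WT cells (33.5 to 55.3). Cells past 5 counts had a median of 1873 CPM in Tcf7-/-, 1378 CPM in Vav-cre-labelled and 1286 CPM in WT DN1, and their levels ran from 116 to 25871 CPM, from 387 to 11370 CPM and from 105 to 11697 CPM. The libraries differed in depth, and with every cell thinned to 10000 counts the share of cells with a Ccl5 count was 52.1% in Tcf7-/-, 55.1% in Vav-cre-labelled and 61.7% in WT cells, against 82.2%, 69.4% and 87.7% of the same cells before thinning. The thinning left out 23 Tcf7-/-, 9 Vav-cre-labelled and 5 WT cells. The thinned intervals overlap in all 3 libraries.

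**Figure D2:**
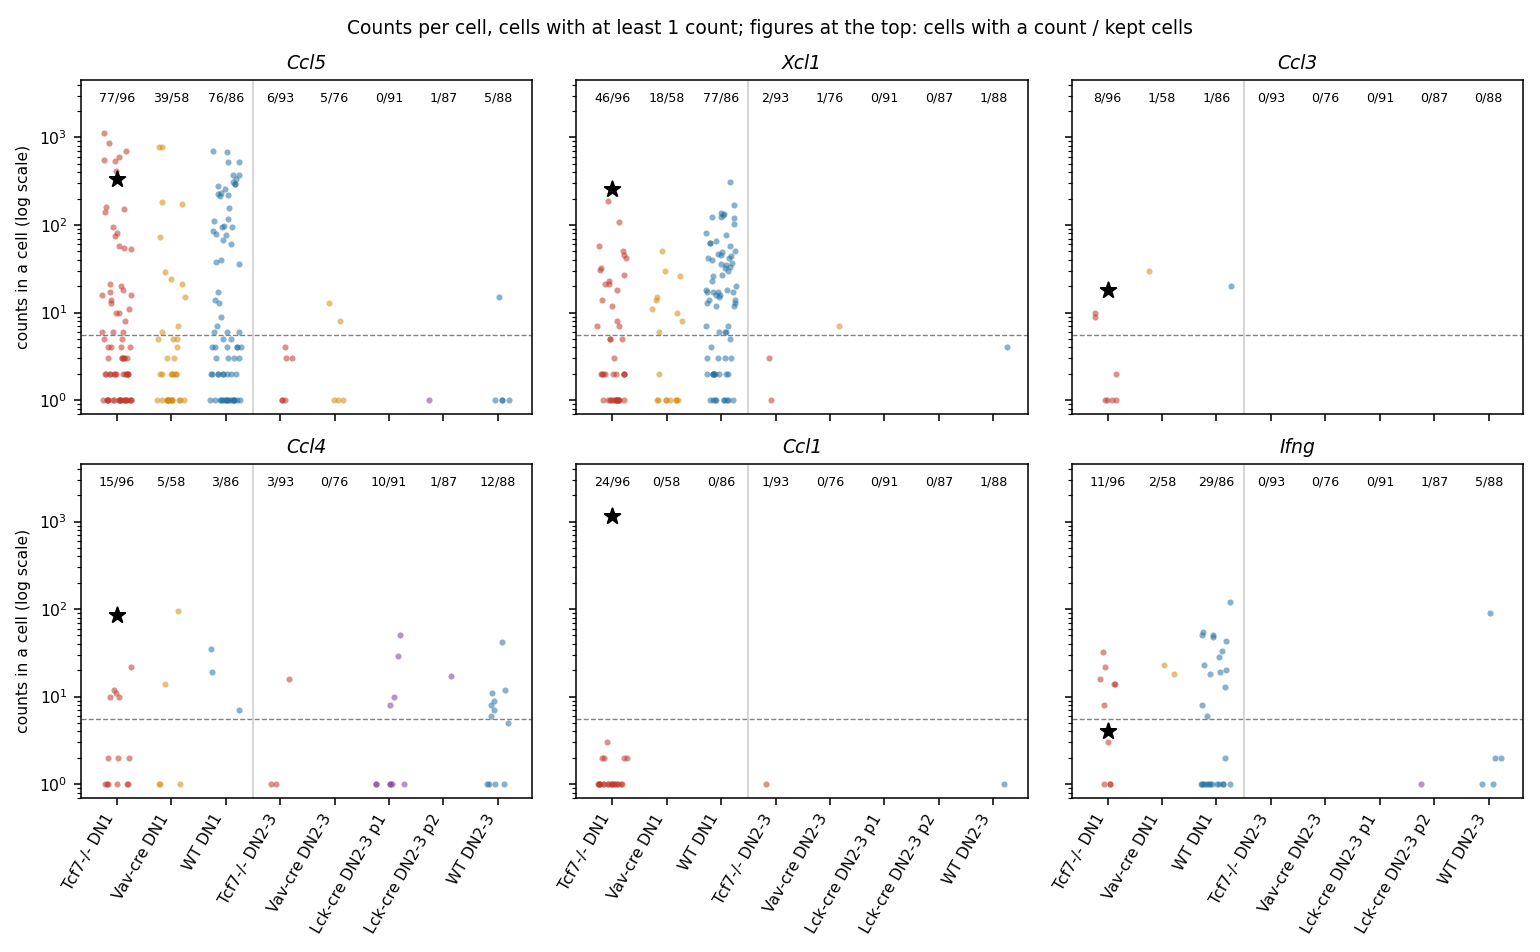
Counts of each gene per cell on a log axis for every kept cell with at least 1 count, by library, with the number of cells with a count over the kept cells printed above. The dashed line separates counts of 5 or fewer, and the star is the Tcf7-/- DN1 cell with 1152 Ccl1 counts, which also holds 255 Xcl1 and 85 Ccl4 counts.

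Xcl1, which encodes lymphotactin, was lower in Tcf7-/- and in Vav-cre-labelled DN1 than in WT DN1. It stood at 244 CPM (229 to 260) in Tcf7-/- DN1, 117 CPM (101 to 135) in Vav-cre-labelled DN1 and 382 CPM (368 to 397) in WT DN1. The log2 ratio was -0.63 for Tcf7-/-, short of 2-fold, and -1.63 for Vav-cre-labelled cells, where it was 3.27-fold lower than in WT. Here the number of positive cells differed: more than 5 counts were seen in 19 of 96 Tcf7-/- cells, 9 of 58 Vav-cre-labelled cells and 53 of 86 WT cells, which is 19.8% (12.4 to 29.2), 15.5% (7.35 to 27.4) and 61.6% (50.5 to 71.9). The WT interval lies above both others. At equal depth only the share of cells with at least 1 count was taken. It was 39.7% of thinned Tcf7-/- cells (28.5 to 51.9), 26.5% of Vav-cre-labelled cells (14.9 to 41.1) and 67.9% of WT cells (56.6 to 77.8). The WT interval again lay above both others. The share past 5 counts was not recounted at equal depth. Cells past 5 counts had a median of 715 CPM in Tcf7-/-, 614 CPM in Vav-cre-labelled and 408 CPM in WT cells. The lowest of them stood at 125, 442 and 68.2 CPM, since 5 counts are a higher CPM in a cell with fewer counts. These medians thus do not compare the level per cell. The highest cell had 255, 51 and 309 counts in Tcf7-/-, Vav-cre-labelled and WT DN1, or 25.1%, 28.2% and 11.4%. Without that cell Tcf7-/- stood at 183 CPM against 344 CPM in WT.

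Ifng was at 27.9 CPM (23 to 33.4) in Tcf7-/- DN1, 26.5 CPM (19 to 35.9) in Vav-cre-labelled DN1 and 77.3 CPM (71 to 84.1) in WT DN1, with log2 ratios of -1.20 and -1.26. It was 2.77-fold lower in Tcf7-/- and 2.92-fold lower in Vav-cre-labelled DN1 than in WT DN1. Vav-cre-labelled and Tcf7-/- DN1 did not differ beyond counting error, with a log2 ratio of -0.05. More than 5 Ifng counts were seen in 6 Tcf7-/-, 2 Vav-cre-labelled and 15 WT cells. The highest cells had 32, 22 and 16 counts in Tcf7-/- DN1, 23 and 18 in Vav-cre-labelled DN1, and 120, 55 and 51 in WT DN1. At equal depth 9.59% of Tcf7-/- cells (3.94 to 18.8), 4.08% of Vav-cre-labelled cells (0.498 to 14) and 18.5% of WT cells (10.8 to 28.7) had a count, and these intervals overlap.

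Ccl3 and Ccl4, which encode the neighbouring chemokines MIP-1α and MIP-1β, went the other way, in very few cells. Ccl4 was at 38.9 CPM (33.2 to 45.4) in Tcf7-/- DN1, 73 CPM (60.2 to 87.8) in Vav-cre-labelled DN1 and 8.58 CPM (6.56 to 11) in WT DN1, which gave log2 ratios of 1.40 and 2.16. A single cell held 85 of the 162 Tcf7-/- counts, 1 cell held 96 of the 113 Vav-cre-labelled counts and 1 cell held 35 of the 61 WT counts. Without those cells the levels were 18.6 CPM, 11.4 CPM and 3.72 CPM, and only the Tcf7-/- level was still 2-fold above WT on the log2 scale with the pseudocount. Ccl3 was at 10.3 CPM in Tcf7-/- DN1, 19.4 CPM in Vav-cre-labelled DN1 and 2.81 CPM in WT DN1. All 30 Vav-cre-labelled counts and all 20 WT counts of Ccl3 came from 1 cell each, and in Tcf7-/- DN1 3 cells with 18, 10 and 9 counts held 86% of the 43 counts. Differences in Ccl3 between these libraries are therefore differences between a few cells.

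Most of the cells with more than 5 Ccl3 counts had progenitor genes, along with genes of other cell types. Among the Tcf7-/- cells, those with 10 and 9 Ccl3 counts had genes of early lymphoid and myeloid progenitors such as Bcl11a (24 and 58 counts) and Lyl1 (8 and 29 counts). The Tcf7-/- cell with 18 Ccl3 counts was the cell that held the Ccl1 counts. The Vav-cre-labelled cell had 30 Ccl3 and 96 Ccl4 counts with 37 of Spi1, 21 of Cd34, 21 of Flt3, 18 of Hhex and 13 of Bcl11a, again progenitor genes. The WT cell had 20 Ccl3 and 19 Ccl4 counts together with 234 of Bcl11a, 75 of Spi1, 72 of Dntt, 31 of Hhex and 18 of Flt3. It also had 306 counts of Klrd1, a receptor gene of NK cells, and the dendritic-cell markers Cd74 (83), Itgax (27), H2-Ab1 (24) and Siglech (18), with 81.8% of the Itgax and 78.3% of the Siglech counts of WT DN1.

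Ccl1 was in effect a gene of 1 cell. Its level was 284 CPM in Tcf7-/- DN1, with no count in Vav-cre-labelled DN1 (upper limit 2.38 CPM) or WT DN1 (upper limit 0.519 CPM). Against the floor of 3 counts per library Tcf7-/- DN1 was at least 673-fold higher than WT DN1. Of its 1181 counts, 1152 came from 1 cell, which held 97.4% of the Ccl1 counts of all kept cells. Another 23 cells of the same library had 29 counts together, at most 3 each, and the library stood at 7 CPM without the cell. Elsewhere Ccl1 had 1 count in Tcf7-/- DN2-3 and 1 in WT DN2-3.

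That cell was high for 5 of the 6 members at once. Of its 17225 counts, 1850 or 10.7% were counts of the 6 genes, against 0.168% over the other cells of its library and 2.64% in the next highest. Besides Ccl1 it had 336 counts of Ccl5, 255 of Xcl1, 85 of Ccl4, 18 of Ccl3 and 4 of Ifng. It held 25.1% of the Xcl1, 52.5% of the Ccl4 and 41.9% of the Ccl3 counts of Tcf7-/- DN1. It also had 68 counts of Gzma, 48 of Nkg7, 24 of Klrd1, 13 of Klrk1, 7 of Ncr1 and 6 of Prf1. These are genes of killer lymphocytes and the only 6 of the 10 listed NK markers past 5 counts, with none of Gzmb, Klrb1c and Cd7. The cell had 20 counts of Cd3g, 1 of Cd3e, none of Cd3d, and 32 of Tnfrsf9, an activation receptor. Without it Tcf7-/- DN1 stood at 1436 CPM of Ccl5, 183 CPM of Xcl1, 6.04 CPM of Ccl3, 18.6 CPM of Ccl4 and 27 CPM of Ifng. No member was then at least 2-fold higher than in WT, and Xcl1 and Ifng were at least 2-fold lower.

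Vav-cre-labelled DN1 was also set against Tcf7-/- DN1, since both are labelled as lacking TCF1 before the DN1 stage. Of 6 measured members none was at least 2-fold higher and 2 were at least 2-fold lower, Xcl1 and Ccl1, where 13.8% and 11.6% of 8996 measured genes were. Xcl1 was 2.09-fold lower, at the edge of the call. The log2 ratio was -4.88 for Ccl1, 0.76 for Ccl4, 0.53 for Ccl3 and -0.13 for Ccl5. Both lower values rested on the Tcf7-/- cell with the Ccl1 counts: without it neither was 2-fold, and Ccl4 was at least 2-fold higher.

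To see which cells made these transcripts, cells were clustered with the 6 genes kept out, and clusters were named from marker lists. A cluster of 105 DN1 cells, 23 Tcf7-/-, 9 Vav-cre-labelled and 73 WT, was NK-like, with 8 NK markers raised (Klrb1c, Klrd1, Klrk1, Gzmb, Prf1, Nkg7, Klre1 and Cd7). The name is limited by other genes of these cells. Ncr1, the gene of the NK receptor NKp46, had 18 counts in the Tcf7-/- cells of the cluster, 63, all in 1 cell, in the Vav-cre-labelled cells and none in the WT cells. Cd3g, a subunit gene of the T-cell receptor complex, had more than 5 counts in 23 of 23 Tcf7-/-, 6 of 9 Vav-cre-labelled and 69 of 73 WT cells, and 4 T-cell markers were raised. Cells of the cluster thus carried both NK receptor and CD3 transcripts. Other DN1 clusters were LTi-like (76 cells, with genes of lymphoid tissue inducer cells), early progenitor-like (23 cells) and B-like (5 cells), and 25 Tcf7-/-, 3 Vav-cre-labelled and 3 WT DN1 cells were in unnamed clusters. The median unnamed Tcf7-/- cell had 5531 counts. The LTi-like name is also limited: Cd3g had more than 5 counts in 27 of 30 Tcf7-/-, 7 of 39 Vav-cre-labelled and 7 of 7 WT cells of that cluster, and Klrd1 in 6, 3 and 5 of them.

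**Figure D3:**
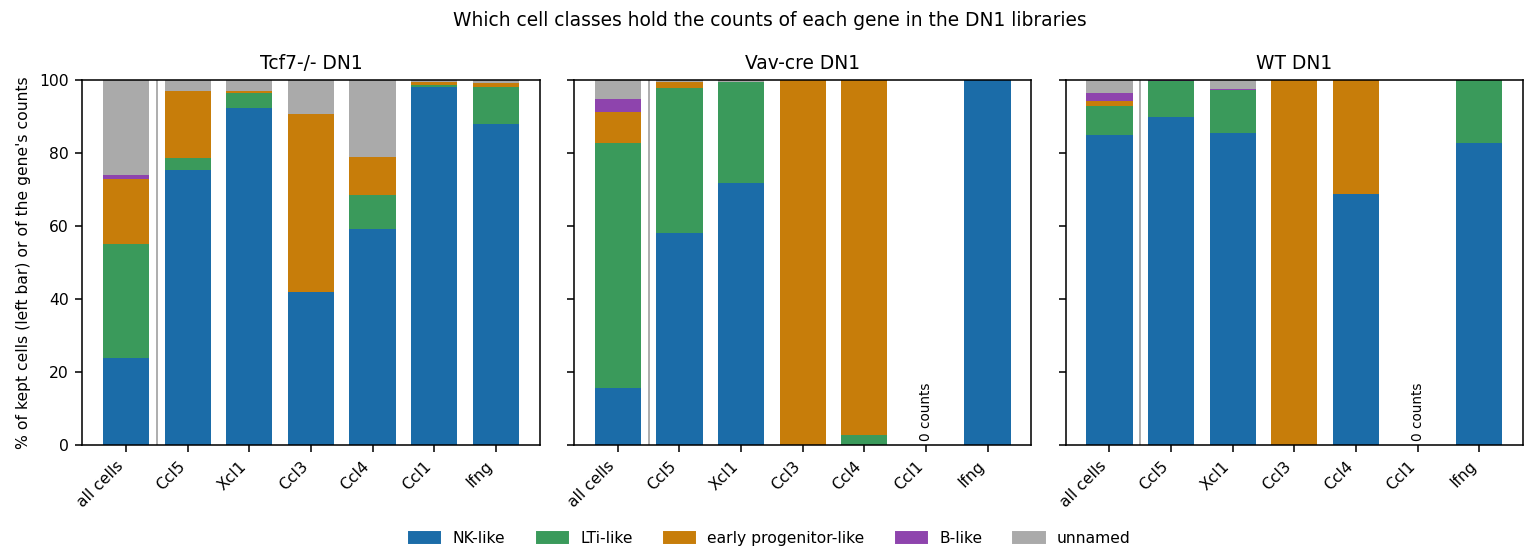
Percentage of kept cells in each class (left bar) and percentage of the counts of each gene held by each class, for the 3 DN1 libraries. NK-like cells hold 75.4%, 58.1% and 89.8% of the Ccl5 counts in Tcf7-/-, Vav-cre-labelled and WT DN1, and early progenitor-like cells hold all Ccl3 counts of Vav-cre-labelled and WT DN1.

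NK-like cells held most Ccl5, Xcl1 and Ifng counts in every DN1 library. Their share was 75.4% of Ccl5 in Tcf7-/-, 58.1% in Vav-cre-labelled and 89.8% in WT DN1. For Xcl1 it was 92.3%, 71.8% and 85.6%, and for Ifng 87.9%, 100% and 82.9%, in the same order. These cells were 23 of 96 Tcf7-/-, 9 of 58 Vav-cre-labelled and 73 of 86 WT kept cells. In WT DN1 their shares of Xcl1 and Ifng thus lay near their share of cells. Ccl3 and Ccl4 were spread differently: early progenitor-like cells held 48.8% of Ccl3 and 10.5% of Ccl4 in Tcf7-/- DN1, 100% and 97.3% in Vav-cre-labelled DN1, and 100% and 31.1% in WT DN1, the last from 1 cell.

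Within NK-like cells Ccl5 was higher in the Tcf7-/- and Vav-cre-labelled cells than in WT cells, by more than in the libraries as a whole. It stood at 4321 CPM (4199 to 4446) in 23 Tcf7-/- cells, 4610 CPM (4357 to 4874) in 9 Vav-cre-labelled cells and 1203 CPM (1174 to 1233) in 73 WT cells. That is 3.59-fold (3.46 to 3.73) and 3.83-fold (3.6 to 4.07) above WT, with intervals for counting error only. Without the highest NK-like cell of each library the levels were 3561, 3228 and 1084 CPM. The median cell had 999 CPM in Tcf7-/-, 1378 CPM in Vav-cre-labelled and 181 CPM in WT NK-like cells, and more than 5 counts were seen in 15 of 23, 7 of 9 and 32 of 73 cells. The quartiles of the cells overlapped, from 52.8 to 5493 CPM in Tcf7-/-, 1127 to 6267 CPM in Vav-cre-labelled and 17.8 to 1451 CPM in WT NK-like cells.

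Xcl1 and Ifng, lower in the Tcf7-/- and Vav-cre-labelled libraries, stood at or above the WT level within NK-like cells when all of them were counted. Xcl1 stood at 855 CPM (801 to 911) in Tcf7-/-, 483 CPM (403 to 573) in Vav-cre-labelled and 437 CPM (419 to 455) in WT NK-like cells, 1.96-fold and 1.11-fold the WT level. Ifng stood at 93.1 CPM (75.9 to 113), 152 CPM (109 to 206) and 85.6 CPM (77.9 to 93.8), in the same order. The fold of Ifng over WT was 1.09 in Tcf7-/- cells (0.869 to 1.35) and 1.78 in Vav-cre-labelled cells (1.26 to 2.45), the second from 2 cells with 23 and 18 counts. Without the highest cell the Xcl1 levels were 632, 313 and 387 CPM and the Ifng levels 66.1, 72.5 and 64.4 CPM, so the order of Vav-cre-labelled and WT cells for Xcl1 turned round. NK-like cells were 23 of 96 Tcf7-/-, 9 of 58 Vav-cre-labelled and 73 of 86 WT kept cells. The part of these numbers in the library levels of Xcl1 and Ifng was not tested.

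**Figure D4:**
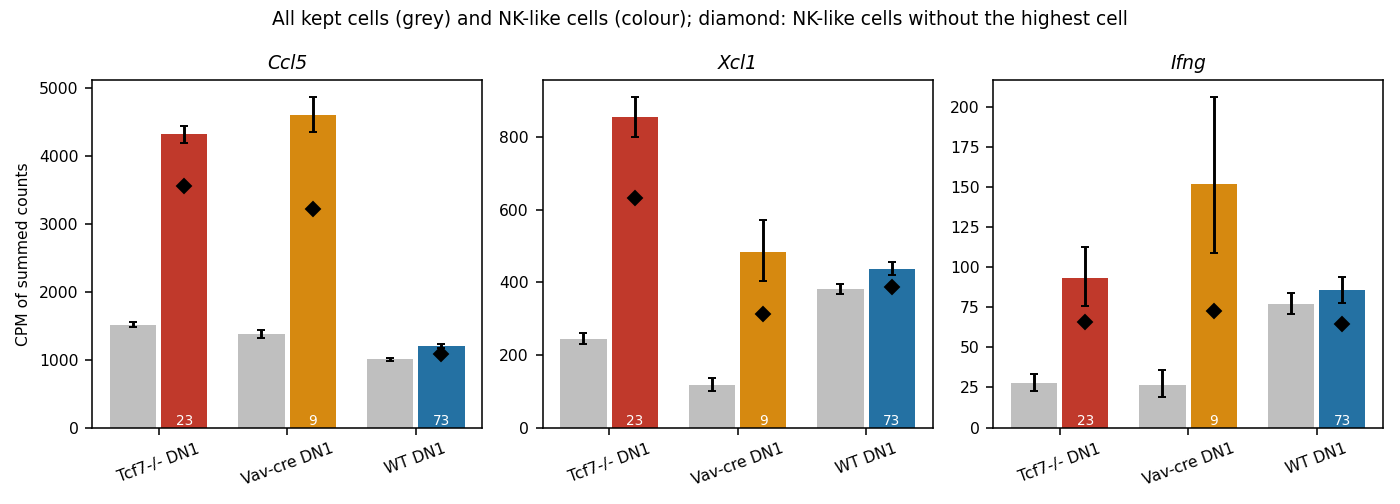
CPM of Ccl5, Xcl1 and Ifng summed over all kept DN1 cells (grey) and over NK-like cells (colour), with exact 95% Poisson intervals and the number of NK-like cells in each bar. Diamonds leave out the highest NK-like cell, and for Ccl5 they stand at 3561 CPM in Tcf7-/- and 3228 CPM in Vav-cre-labelled DN1 against 1084 CPM in WT.

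NK-like cells of the 3 libraries were not alike in other effector genes. Gzma, which encodes granzyme A, stood at 4939 CPM in Tcf7-/-, 3786 CPM in Vav-cre-labelled and 557 CPM in WT NK-like cells. Gzmb stood at 2354, 1050 and 311 CPM. In the Vav-cre-labelled NK-like cells 1 cell held 94.7% of the Gzma and 79.5% of the Gzmb counts. More than 5 Gzma counts were seen in 20 of 23 Tcf7-/-, 2 of 9 Vav-cre-labelled and 15 of 73 WT NK-like cells. Klra9, a Ly49 receptor gene, stood at 42 CPM, 0 and 1688 CPM. Klrd1 differed little, at 1275, 1381 and 1292 CPM. The median NK-like cell had 41350 counts in Tcf7-/-, 21091 in Vav-cre-labelled and 59589 in WT DN1. The part of cell makeup within the cluster in the higher Ccl5 level was not tested.

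Other classes held Ccl5 at lower or uneven levels. In Tcf7-/- DN1 early progenitor-like cells stood at 753 CPM, with more than 5 counts in 7 of 17 cells and 51.6% of the counts in 1 cell. The 25 unnamed Tcf7-/- cells stood at 1049 CPM, with more than 5 counts in 7 of them, and also held 34 of the 162 Ccl4 counts of their library. LTi-like cells are not compared between libraries, since their CD3 and NK genes differed. In Vav-cre-labelled DN1 they held 849 Ccl5 counts, 92.6% of them in 1 cell. That cell, with 786 Ccl5 counts the highest of its library, had no NK marker and, against its cluster name, no LTi marker above 5 counts. It had 692 counts of Ccr7, 163 of Cd74, 117 of Ccl22, 115 of Cxcl16, 76 of Batf3 and 55 of Ccl17. These are genes of mature dendritic cells, but of the 7 listed dendritic-cell markers only Cd74 and Batf3 passed 5 counts. Batf3 and Ccr7 were also among the top genes of the LTi-like cluster at Leiden resolution 2. The cell held between 90.6% and 95.1% of the Ccr7, Ccl22, Cxcl16 and Ccl17 counts of its library. The highest Ccl5 cells of the other DN1 libraries were NK-like, and the top Tcf7-/- cell had 731 counts of Gzma, 251 of Nkg7 and 73 of Klrd1.

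The members were also counted in pairs. Of 81 cells with more than 5 Ccl5 counts, 44 also had more than 5 Xcl1 counts, which is 54.3% of the Ccl5 cells and 54.3% of the Xcl1 cells, where 33.8% of all DN1 cells had each. These pooled values mix libraries with different shares. Within a library Xcl1 passed 5 counts in 12 of 32 Tcf7-/-, 4 of 11 Vav-cre-labelled and 28 of 38 WT Ccl5 cells, which is 37.5%, 36.4% and 73.7%, where 19.8%, 15.5% and 61.6% of all cells did. Of 23 Ifng cells, 15 had Ccl5 and 16 had Xcl1. In WT DN1 Xcl1 was in 12 of 15 Ifng cells, or 80% against 61.6% of all cells, and Ccl5 in 10 of 15, or 66.7% against 44.2%. Of 5 Ccl3 cells, 4 had Ccl4, which is 80% of the Ccl3 cells and 36.4% of the 11 Ccl4 cells. No Ifng cell had Ccl3 and 1 had Ccl4. None of the genes passed 5 counts in 53 of 96 Tcf7-/- cells, 41 of 58 Vav-cre-labelled cells and 21 of 86 WT cells. Deeper cells pass 5 counts more easily, and the parts of depth and library in this overlap were not tested.

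**Figure D5:**
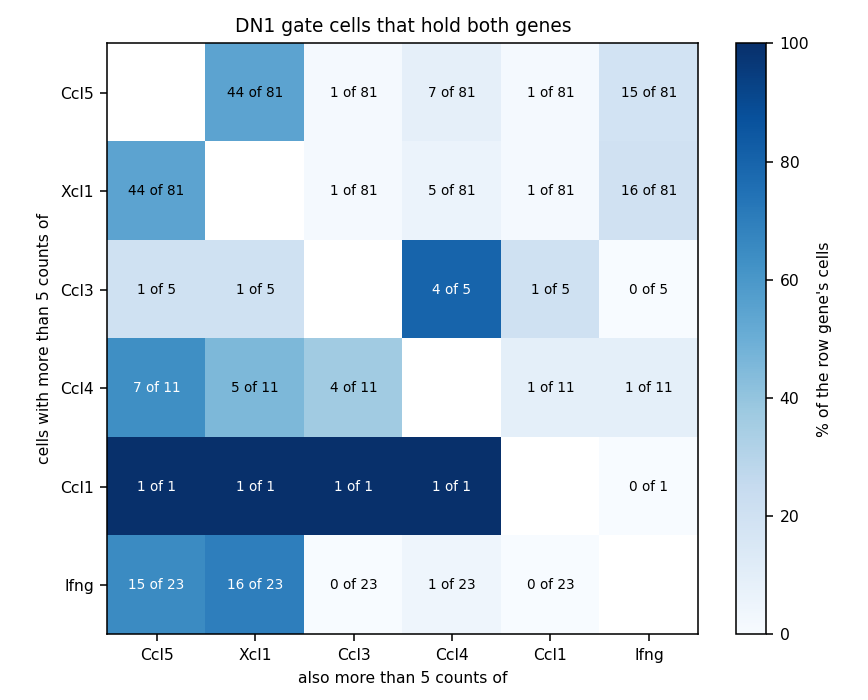
Of the DN1 cells with more than 5 counts of the row gene, the number that also had more than 5 counts of the column gene, with shading for the percentage of the row gene's cells. Ccl3 cells mostly hold Ccl4 (4 of 5), Ifng cells mostly hold Ccl5 and Xcl1 (15 and 16 of 23), and the Ccl1 row is 1 cell.

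Across the 240 DN1 cells, the genes most like Ccl5 by Pearson correlation of log2(CPM + 10) were Klre1 (r = 0.45), Gzma (0.42), Klra5 (0.41), Nkg7 (0.39) and Klrd1 (0.38). Those most like Xcl1 were Ms4a4b (0.64), Klrk1 (0.61), Nkg7 (0.61), Gimap4 (0.58) and Cxcr3 (0.56), and those most like Ifng were Klre1 (0.41), Klra5 (0.37), Klrc1 (0.36), Klra9 (0.33) and Xcl1 (0.31). Klre1, Klra5, Klrc1, Klra9, Klrd1 and Klrk1 encode lectin-like receptors of NK cells. The correlation of Ccl5 with Xcl1 was 0.35. These values pool 3 libraries that differ in level. Over the 86 WT cells alone, the 5 most like genes kept Gzma, Klra5 and Klre1 for Ccl5, Klrk1, Ms4a4b and Nkg7 for Xcl1, and Klra5 and Klre1 for Ifng. The other WT genes were Sidt1 and Klrc1 for Ccl5, AW112010 and Ctsd for Xcl1, and Ddhd2, Ptrh2 and Polr2c for Ifng. Within WT the correlation of Ccl5 with Xcl1 was 0.25 and that of Ifng with Xcl1 0.21, at rank 122 of the genes most like Ifng. Cells of a library share its depth and makeup, and the pooled values describe 7887 genes compared, with no test. Ccl4 and Ccl1 reached no more than 0.31 and 0.38 with any gene, in 23 and 24 cells with a count, and Ccl3 was in too few cells to compare.

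Cells of the DN2-3 gate are T-cell precursors, and WT DN2-3 was set against WT DN1 to follow the genes across the gates. Of 4 measured members none was at least 2-fold higher and 3 were at least 2-fold lower, Ccl5, Xcl1 and Ifng, where 16.3% and 11.7% of 8702 measured genes were. Ccl5 and Xcl1 reached 10 CPM only in WT DN1 and could differ only downwards. Ccl5 had 19 counts in WT DN2-3, 15 of them in 1 cell, and stood at 3.82 CPM against 1004 CPM in WT DN1, 263-fold lower. Xcl1 had 4 counts, all in 1 cell, and stood 475-fold lower. Ccl3 had no count in any DN2-3 library, with upper limits from 0.441 to 0.842 CPM. Ifng stood at 19.5 CPM in WT DN2-3 against 77.3 CPM in WT DN1, a log2 ratio of -1.57, but 91 of its 97 WT DN2-3 counts came from 1 cell and the level without that cell was 1.22 CPM. That cell had precursor genes, with 328 counts of Ly6d, 243 of Dntt and 42 of Arpp21, and 20 of Nkg7. Ccl4 was 2.44-fold higher in WT DN2-3 than in WT DN1 (1.76 to 3.40), at 20.9 CPM against 8.58 CPM, and its log2 ratio with the pseudocount was 0.73, short of 2-fold.

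The DN2-3 libraries differed in how many cells held Ccl4. WT DN2-3 had 104 counts in 12 of 88 cells, with 42, 12, 11, 9, 8, 7 and 6 counts in the 7 cells past 5. The highest of them had 291 counts of Ly6d, 140 of Dntt and 123 of Arpp21, genes of T-cell precursors. These were the only 3 of the 8 DN2 and DN3 markers past 5 counts in it. It also had 231 counts of Gzma, 62 of Nkg7 and 40 of Cd163l1, a listed marker of gamma-delta T cells. The next 2 cells had Dntt at 85 and 87 counts, Ly6d at 46 and 183 and Arpp21 at 17 and 111. The first of these 2 also had 84 counts of Nkg7, and the other had 12 of Gzma. The first Lck-cre library had 103 counts in 10 of 91 cells, with 50, 29, 10 and 8 counts in the 4 cells past 5. The second Lck-cre library had 17 counts in 1 of 87 cells. Tcf7-/- DN2-3 had 18 counts in 3 of 93 cells, 16 of them in 1 cell, and Vav-cre-labelled DN2-3 had none in 76 cells. More than 5 counts were seen in 7.95% of WT DN2-3 cells (3.26 to 15.7) and 3.49% of WT DN1 cells (0.725 to 9.86). These intervals overlap. Over all libraries of a gate the share was 2.99% of DN2-3 cells and 4.58% of DN1 cells.

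Against WT DN2-3, Ccl4 and Ifng were the 2 measured members in each comparison, and both passed only through the WT library for Tcf7-/- and Vav-cre-labelled cells. For Tcf7-/- DN2-3 none of the 2 was at least 2-fold higher and both were at least 2-fold lower, where 3.19% and 10.5% of 8255 measured genes were. Ccl4 stood at 2.15 CPM (1.27 to 3.40) against 20.9 CPM (17.1 to 25.3) in WT DN2-3, 9.72-fold lower, with a log2 ratio of -1.35. For Vav-cre-labelled DN2-3 none was at least 2-fold higher and both were at least 2-fold lower, where 5.77% and 10.5% of 8357 measured genes were. Ccl4 was at least 30.5-fold lower against the floor of 3 counts per library, with a log2 ratio of -1.63. For Lck-cre none was at least 2-fold higher and 1, Ifng, was at least 2-fold lower, where 0.935% and 3.48% of 8447 measured genes were.

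The pair of Lck-cre libraries shows how far Ccl4 can differ within a genotype and gate. It stood at 16.9 CPM (13.8 to 20.4) in the first and 2.91 CPM (1.70 to 4.66) in the second, with log2 ratios over WT of -0.20 and -1.26. The 2 libraries thus differed from each other by 1.06 on the log2 scale, where 5% of 8004 measured genes differed by more than 1.01 and the median gene by 0.31. The log2 ratio of Ccl4 over WT was -1.35 in Tcf7-/- DN2-3 and -1.63 in Vav-cre-labelled DN2-3, beside -1.26 in the second Lck-cre library. A single pair of libraries cannot measure the spread between libraries, so these ratios are not judged against it. The counts of few cells lie behind all of them. Ifng had no count in Tcf7-/-, Vav-cre-labelled or the first Lck-cre DN2-3 library and 1 count in the second. Since 1 WT cell held 91 of its 97 counts, the lower Ifng of the Tcf7-/-, Vav-cre-labelled and Lck-cre DN2-3 libraries rests on that cell.

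Ccl5 and Xcl1 were near their limit in all DN2-3 libraries. Ccl5 had 13 counts in Tcf7-/-, 24 in Vav-cre-labelled, 0 and 1 in Lck-cre and 19 in WT DN2-3. Both Vav-cre-labelled cells past 5 counts, with 13 and 8, had Gzma at 471 and 1057 counts together with Dntt at 29 and 169 and Ly6d at 207 and 476. Xcl1 had 4, 7, 0, 0 and 4 counts, in that order of libraries, and all 7 of the Vav-cre-labelled counts came from a cell of 2735 counts. No DN2-3 cell had more than 5 counts of 2 of the genes.

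Genes around these signals were read from lists of receptors, other chemokines and cytokines, type 1 regulators and targets of interferon-gamma. Of the receptors, none of 5 measured genes was at least 2-fold higher or lower in Tcf7-/- DN1 (10.4% and 5.34% of all measured genes). In Vav-cre-labelled DN1 3 of 6 were higher and 1 was lower than in WT, where 18% and 9.64% of all measured genes were. Xcr1, the receptor gene for Xcl1, stood at 30.3 CPM in Tcf7-/-, 38.8 CPM in Vav-cre-labelled and 62.6 CPM in WT DN1, and 1 cell held 93.3% of the WT counts. Ifngr1 was found in every library, at 333, 461 and 416 CPM in the DN1 gate and between 266 and 611 CPM in the DN2-3 gate, so the receptor gene was present where Ifng was not.

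Of 28 other chemokine genes few were measured. In Tcf7-/- DN1, where 10.4% of all measured genes were 2-fold higher and 5.34% lower, 1 of 3 was higher than in WT and none lower. In Vav-cre-labelled DN1 4 of 5 were 2-fold higher and none lower, Ccl17, Ccl22, Cxcl16 and Ccl27a, and the cell with 786 Ccl5 counts held most counts of the first 3. Of the other cytokines 4 of 11 were higher in Tcf7-/- DN1 and none lower, among them Lta at 162 CPM against 8.58 CPM in WT, with 67.7% of the Tcf7-/- counts in 1 cell. In Vav-cre-labelled DN1 3 of 10 were higher and 2 lower (18% and 9.64% of all genes). In WT DN2-3 none of 7 was higher and 5 were lower than in WT DN1 (16.3% and 11.7% of all genes).

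The type 1 regulators include Tbx21, the gene of T-bet, which drives Ifng in NK cells and T helper 1 cells. Tbx21 stood at 30.5 CPM in Tcf7-/-, 12.9 CPM in Vav-cre-labelled and 114 CPM in WT DN1, and Il18rap, a subunit gene of the interleukin-18 receptor, at 67.8, 79.5 and 217 CPM. Il18r1, the other subunit gene, stood at 134, 436 and 161 CPM. Il12rb1, a subunit gene of the interleukin-12 receptor, stood at 61.8 CPM in Tcf7-/-, 58.8 CPM in Vav-cre-labelled and 19.7 CPM in WT DN1, more than 2-fold higher than WT in both. Of 12 measured regulators 1 was higher and 4 were lower in Tcf7-/- DN1, where 10.4% and 5.34% of all measured genes were. In Vav-cre-labelled DN1 4 were higher and 3 lower, beside 18% and 9.64% of all genes, and in WT DN2-3 against WT DN1 1 was higher and 7 lower, beside 16.3% and 11.7%. Within NK-like cells Tbx21 stood at 99.4, 74.2 and 150 CPM in Tcf7-/-, Vav-cre-labelled and WT DN1. The Vav-cre-labelled value came from 20 counts in 9 cells. A single cell held 70% of the Tbx21 counts, both in these cells and in the whole Vav-cre-labelled DN1 library.

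Targets of interferon-gamma are genes that the cytokine is known to raise. Of 16 measured targets 3 were 2-fold higher and 1 lower in Tcf7-/- DN1 (10.4% and 5.34% of all measured genes), the higher ones being Socs1 (188 CPM against 79.998 CPM in WT), Igtp (154 against 63.5 CPM) and Irgm1 (148 against 67.8 CPM). In Vav-cre-labelled DN1 none of 15 was higher and 1 was lower (18% and 9.64% of all genes). In Vav-cre-labelled DN2-3, which had no Ifng count, 4 of 16 were higher and none lower (5.77% and 10.5% of all genes), among them Igtp at 193 CPM against 57.7 CPM in WT and Nlrc5 at 69.6 against 17.7 CPM. In Tcf7-/- DN2-3 none of 15 was higher and 2 were lower (3.19% and 10.5% of all genes). In Lck-cre DN2-3 none of 16 was at least 2-fold higher or lower (0.935% and 3.48% of all genes). Psmb8, an immunoproteasome gene that interferons raise, stood between 745 and 1154 CPM in all 8 libraries.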

How the data were processed

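A modified STRT protocol turned the RNA of each cell into cDNA, read as 150-bp paired-end reads, per the labels' protocols, which also mention Smart-seq2. TopHat2 2.1.1, HTSeq and mm10 (also GRCm38 for 576 cells) are named in the submitters' processing notes, and whether molecular identifiers were collapsed is not given in the sources used here. The authors deposited unnormalized counts for every gene in every cell, and log2 values, log2(TPM/10 + 1), which served as an alternative. Of 23154 entries 27 named by a date (0.141% of counts) were dropped. Counts of cells with at least 1000 genes were summed per library, and a member or gene counted as measured at 10 CPM. Log2 ratios used a pseudocount of 10 CPM, with a call at 2-fold, ratio intervals from a conditional binomial and shares with Clopper-Pearson intervals at 95%. For Lck-cre the mean of both log2 ratios is given. A fold against 0 counts uses a floor of 3 counts per library. PCR copies are not independent molecules. Clusters came from scanpy 1.11.5 with Leiden resolution 1, with the members, Tcf7 and the context genes kept out. No doublet caller was run on the singly sorted cells. The ratio calculation was tested on simulated data. Alternatives included all 768 cells, at least 2000 genes, equal cell weights, thinning to 10000 counts, counts of 1 to 5 set to 0, no highest cell, TMM (edgeR 4.0.16) and median-of-ratios scaling, and other pseudocounts.

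All 6 members are named. For members with a count in at least 20 DN1 cells the 5 genes with the highest Pearson correlation are named, and context genes have values where they reach 50 CPM in a library. Genes of single cells (such as Ccr7, Tnfrsf9 and the markers) were chosen after their values were seen. The members and lists were chosen with earlier results of these data known. Zfp683 is not analysed here.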

Additional observations from a re-analysis of the deposited data

Results flagged for a closer look

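Ccl4 stood on opposite sides of WT in the 2 gates. Its log2 ratio of Tcf7-/- over WT was 1.40 in the DN1 gate and -1.35 in the DN2-3 gate. Its log2 ratio of Vav-cre-labelled over WT cells was 2.16 in the DN1 gate and -1.63 in the DN2-3 gate. The difference between gates was not tested, since each gate and genotype is 1 library. The gates share no library, but Tcf7-/- and Vav-cre-labelled cells share each WT library. In the DN1 gate 1 cell held 85 of 162 Tcf7-/- counts and 1 cell held 96 of 113 Vav-cre-labelled counts, and in the DN2-3 gate the WT counts were spread over 12 cells.

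Xcl1 had 15 counts in the 38 Vav-cre-labelled DN1 cells with fewer than 1000 detected genes, which enter no level above, and 13 of these counts were in 1 cell. That is 235 CPM of their counts, against 1 count or 39.97 CPM in the 10 WT DN1 cells left out in the same way.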

How the results depend on the processing

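With few members and single cells behind them, counts of members at 2-fold moved easily: 165 of 200 alternative counts stayed within 1.5 times and 35 moved. Of 17 member ratios past 2-fold, 239 of 240 alternatives kept the direction, none turned it round, and 207 kept 2-fold. The exception was Ccl3 in Vav-cre-labelled DN1, at 0 without its only cell. For Tcf7-/- over WT DN1 the lower count (1) was 0 with equal weights, thinning, the deposited log2 values or a pseudocount of 50 CPM, and the higher count (2) was 1 without highest cells or with 50 CPM. Without the Tcf7-/- cell with the most Ccl1 it was 0 higher and 2 lower. Leaving out this cell, the Vav-cre-labelled Ccl5 cell or the highest NK-like cell, and weighting NK-like cells equally, were chosen after seeing the data. For Vav-cre-labelled over WT DN1 the higher count (2) was 1 with equal weights, the log2 values or 50 CPM and 0 without highest cells, and the lower count (2) was 1 with thinning, the log2 values or 50 CPM. For Vav-cre-labelled over Tcf7-/- DN1 the lower count (2) was 1 with all 768 cells, without highest cells, with 50 CPM or without the Vav-cre-labelled cell with the most Ccl5, and 0 without the Ccl1 cell. The higher count (0) was 2 with at least 2000 genes and 1 without the Ccl1 cell. For WT DN2-3 over WT DN1 the higher count (0) was 1, Ccl4, with a pseudocount of 1 CPM. In Tcf7-/- and in Vav-cre-labelled over WT DN2-3 the lower count (2) was 1 without highest cells and 0 with 50 CPM. In Vav-cre-labelled DN2-3 the higher count (0) was 1, Xcl1, with equal weights or the log2 values. For Lck-cre the lower count (1) was 2 with equal weights, thinning or 1 CPM, 0 without highest cells or with 50 CPM, and 1 to 2 with either library left out. The cause of these moves was not tested, beyond the removal of the cells named.

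In NK-like cells the log2 ratio of Ccl5 over WT was 1.84 for Tcf7-/- and 1.93 for Vav-cre-labelled cells. It was 1.71 and 1.56 without the highest cell, 1.70 and 1.33 with cells weighted equally, and 1.78 for Vav-cre-labelled cells at Leiden resolution 0.5. For Xcl1 it was 0.95 and 0.14, against 0.69 and -0.30 without the highest cell and 1.56 and 0.97 with equal weights. For Ifng it was 0.11 and 0.76, against 0.55 for Tcf7-/- with equal weights and 0.15 for Vav-cre-labelled cells without the highest cell. TMM and median-of-ratios scaling moved the median log2 ratio of all genes by -0.18 and -0.12 in Vav-cre-labelled DN1, -0.17 and -0.19 in WT DN2-3 over DN1, 0.20 and 0.18 in Tcf7-/- DN2-3 and 0.15 and 0.18 in Vav-cre-labelled DN2-3. No paired analysis was possible because no result comes from a test, with a single library in every group but Lck-cre. In Vav-cre-labelled DN1, the library with the fewest counts, no count allows up to 2.38 CPM.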

Other observations

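The DN1 cells with fewer than 1000 detected genes also held other members. Ccl5 had 22 counts in the 38 Vav-cre-labelled cells left out, at most 3 in a cell, against 58 counts in the 10 WT cells left out, 53 of them in 1 cell. Ccl4 had 5 counts in 1 of these Vav-cre-labelled cells and none in the WT cells, and Ifng had 1 count and none. No Tcf7-/- DN1 cell was left out, and no member had a count in the cells left out of the DN2-3 libraries.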
